A study of Mus musculus with 6 samples.

Results

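Phospholipid remodeling and transfer was followed here through 9 genes, of the 55385 for which counts were deposited. The genes were taken by symbol and not by a cut on their values, but they were chosen with earlier results of these data known. They are the lysophospholipid acyltransferase genes Lpcat1, Lpcat2, Lpcat4, Lpcat3, Mboat1 and Mboat2, the phospholipid transfer protein gene Pltp, and the sphingomyelinase-like phosphodiesterase genes Smpdl3a and Smpdl3b. RNA came from tumors of female mice of the strain NeuT/ATTAC. In these mice the MMTV promoter drives a constitutively active rat ErbB2, and the FABP4 promoter drives an FKBPv-caspase-8 fusion that acts in fat. The study describes both groups as injected with the dimerizer AP20187 (0.4 mg/kg, from 6 weeks of age), which ablates part of the mammary fat and leaves fibrotic tissue. The DMHCA group also ate a diet with 0.05% DMHCA (a dose of 100 mg/kg) from 8 weeks of age. DMHCA is a steroid that activates the liver X receptors (LXR), nuclear receptors for oxysterols. The treatment label of the controls reads AP20187 Vehicle, which can mean the dimerizer in its vehicle or the vehicle alone, and the tissue label names fibrotic mammary gland.

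Cells renew the fatty acyl chains of their phospholipids by removing a chain with a phospholipase and putting another in its place with a lysophospholipid acyltransferase. The chain that is put back sets how saturated, and so how fluid, the membrane is. LXR is known to raise genes of this cycle and of lipid efflux in liver and macrophages, with Lpcat3, Pltp and Abca1 among its best known targets, and SMPDL3A is a known LXR target in human macrophages.

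Each group had 3 libraries, with 46358654 to 63420620 expected counts per library. DMHCA libraries 1 and 3 differed by little more than sampling noise. Their biological coefficient of variation was 0.0327, against 0.376 to 0.579 for the other pairs within a group, so they were counted as 1 sample and n is 3 control and 2 DMHCA samples. The study describes 3 mice per group, but the labels do not tie libraries to mice, so p-values measure only the spread between these samples. The 6 listed epithelial markers, summed, stood at 225622 to 310583 normalized counts in the controls and at 337983 and 341883 with DMHCA. Of these, Krt8 alone was separated by group, and Epcam, Cdh1 and Krt19 had log2 fold changes below 0 (-0.12, -0.09 and -4.01). The 5 endothelial markers, summed, stood at 6129 to 7193 normalized counts in the controls and at 7235 and 7592 with DMHCA, and of them Cdh5 alone was separated by group (log2 fold change 0.81). The part of either cell type in the results was not tested. Summed salivary gland markers reached 273534 normalized counts in control 1 and at most 3507 in any other sample. Summed B cell markers (20976), T cell markers (9093) and adipocyte markers (17269) were highest in control 3. In a bulk tumor, fewer cells of a type and less RNA per cell cannot be told apart.

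Upstream sequences are shown for Mboat2, Lpcat2 and Lpcat3, the 3 acyltransferase genes whose TPM, a level set per transcript length and library, did not overlap between the groups. On this scale both DMHCA samples lay above every control for 4 of the 9 genes, the fourth being Smpdl3a, and for 20.3% of all genes, and they lay below every control for 0 of the 9 and for 6.97% of all genes. Lpcat3 overlapped in normalized counts. RefSeq (GRCm38.p6) gave a window for 8 of the 9 genes, all but Smpdl3a. Windows are the 250 bases before the RefSeq start, printed 5′ to 3′ on the gene's strand, and ended early where GENCODE annotates an exon. GENCODE starts Mboat2 earlier than RefSeq does, so the Mboat2 window lies inside the GENCODE gene, in an intron between its earliest exon and the RefSeq start. Capitals mark a CCAAT box (CCAAT), a GC box (GGGCGG) or a TATA box (TATAAA), each on either strand.
Mboat2, chr12:24831349-24831598, plus strand: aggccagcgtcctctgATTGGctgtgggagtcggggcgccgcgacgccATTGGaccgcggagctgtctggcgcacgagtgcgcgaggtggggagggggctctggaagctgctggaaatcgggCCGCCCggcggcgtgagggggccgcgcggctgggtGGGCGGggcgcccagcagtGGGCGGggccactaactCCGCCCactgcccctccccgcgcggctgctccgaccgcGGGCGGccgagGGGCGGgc
Lpcat2, chr8:92855083-92855223, plus strand: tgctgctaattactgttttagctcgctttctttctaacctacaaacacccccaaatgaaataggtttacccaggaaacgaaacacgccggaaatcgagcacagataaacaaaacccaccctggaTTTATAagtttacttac
Lpcat3, chr6:124662854-124663026, plus strand: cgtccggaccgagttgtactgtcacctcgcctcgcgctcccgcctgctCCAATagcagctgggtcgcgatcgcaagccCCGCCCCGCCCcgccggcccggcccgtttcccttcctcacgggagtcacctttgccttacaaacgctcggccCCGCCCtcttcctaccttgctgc

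Over the whole 250 bases, a GC box was found in 7 of the 8 windows (all but Smpdl3b) and in 33.0% of the 32536 distinct windows of the RefSeq table. A CCAAT box was found in 6 of 8 (not in Lpcat1 or Lpcat4) and in 33.8% of all windows. The TATA box was found in Lpcat2 alone of the 8, on the opposite strand, and in 12.3% of all windows on either strand. The GC and CCAAT boxes counted for Lpcat2 do not lie within its printed bases. In the Lpcat3 window, the first 2 GC boxes share 1 base. LXR is known to bind pairs of AGGTCA with 4 bases between them. With at most 2 mismatches over both copies, on either strand, such a pair was found in 0 of the 8 windows and in 2.57% of all windows. A match or its absence describes these letters only, and elements outside the window were not searched.

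Across the 9 genes, the means of 6 were higher with DMHCA than in controls, and their median log2 fold change was 0.69, against -0.03 over the 19427 genes tested. All 9 passed the filter on low counts. By edgeR's quasi-likelihood test with Benjamini-Hochberg adjustment, 0 of the 9 had an adjusted p under 0.05, as did 0% of all genes, and the lowest adjusted p over all genes was 0.644. At an unadjusted p under 0.05, 2 of the 9 (22.2%), Mboat2 and Lpcat2, were higher with DMHCA, where 3.53% of all genes were, and 0 were lower, where 4.08% of all genes were. Both DMHCA samples lay above every control for 3 genes (33.3%), namely Mboat2, Lpcat2 and Smpdl3a, where 13.8% of all genes did. None of the 9 lay below every control, where 12.2% of all genes did. DESeq2 on the 6 libraries as separate samples gave Mboat2 alone an adjusted p under 0.05, a call made as higher for 1.43% and as lower for 2.95% of all genes. DESeq2 on the 5 samples gave one to 0 of the 9, where it called 0.247% of all genes higher and 0.957% lower. At an unadjusted p under 0.05 this fit gave 2 of the 9 as higher and 0 as lower, where it gave 4.07% and 6.66% of all genes.

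**Figure D1:**
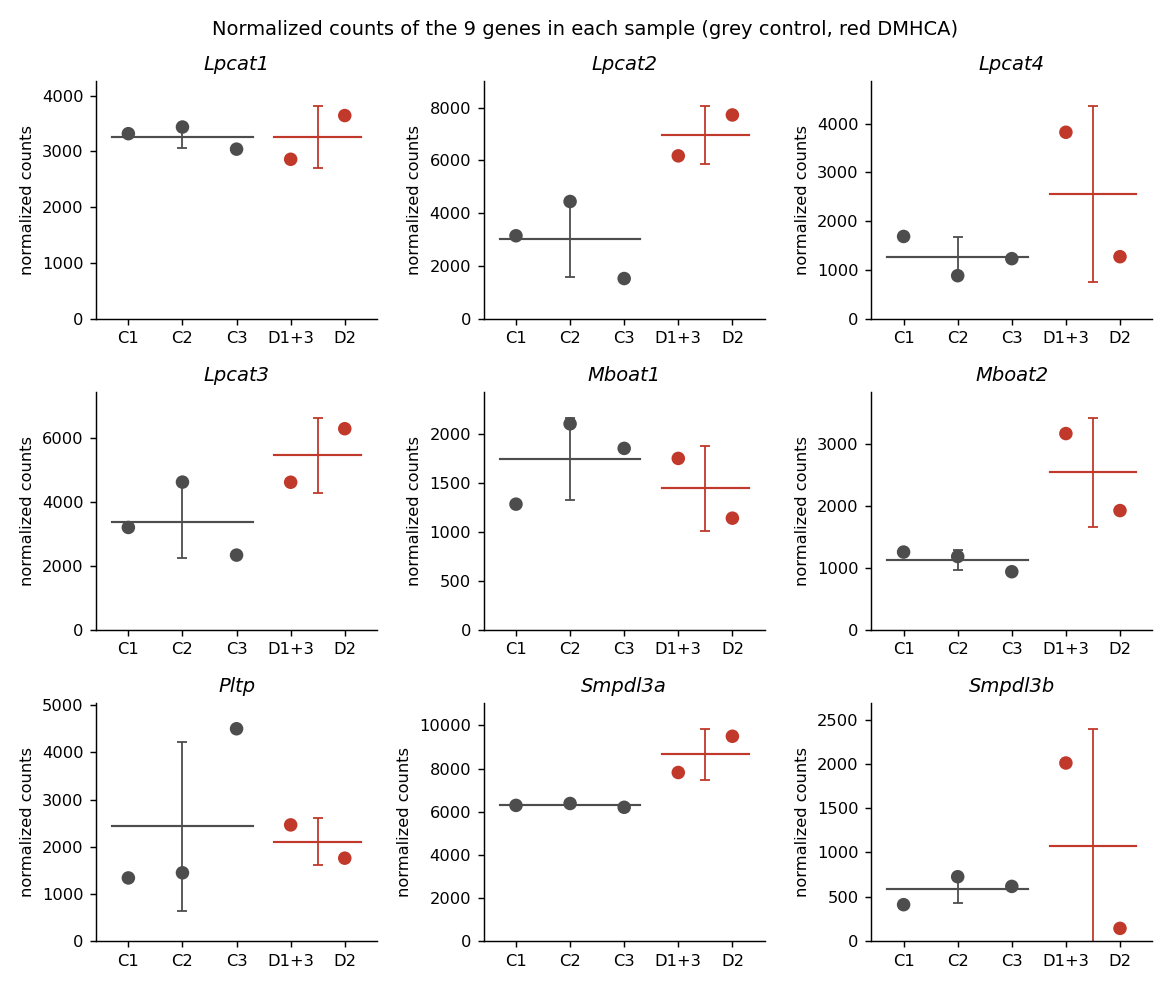
Normalized counts of the 9 genes (vertical axes, each from 0) in control samples 1 to 3 (C1, C2, C3) and in the DMHCA samples (libraries 1 and 3 as 1 sample, D1+3, and library 2, D2). Each point is a sample, horizontal lines are group means and bars are ± 1 SD, with the part of the Smpdl3b bar below 0 not drawn. Both DMHCA points lie above all control points for Mboat2, Lpcat2 and Smpdl3a.

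Mboat2 and Mboat1 encode membrane-bound O-acyltransferases that act on lysophosphatidylethanolamine, Mboat2 also on lysophosphatidylcholine and Mboat1 on lysophosphatidylserine. Mboat2 (ENSMUSG00000020646, chr12:24830879-24964397 of GRCm38, plus strand) held 1257, 1185 and 939 normalized counts in controls 1, 2 and 3. With DMHCA it held 3175 in libraries 1 and 3 as 1 sample and 1929 in library 2, so the lower DMHCA sample stood 1.53 times above the highest control. The means were 1127 ± 167 (SD, n = 3) and 2552 ± 881 (SD, n = 2). This is a log2 fold change of 1.18 (standard error, SE, 0.31, 95% interval 0.43 to 1.92), with an unadjusted p of 0.00762 and an adjusted p of 0.644 by edgeR. It stayed between 1.06 and 1.53 when any single library was dropped, the 1.53 being without DMHCA library 2, with 1 DMHCA sample left. Dropping DMHCA library 1 or 3 left the other, nearly identical one in the fit. DESeq2 on the 6 libraries gave Mboat2 a log2 fold change of 1.297 and an adjusted p of 0.00929. That fit takes the nearly identical DMHCA libraries 1 and 3 as separate samples. With these libraries as 1 sample, DESeq2 on the 5 samples gave Mboat2 an adjusted p of 0.150. Mboat2 shares exon sequence on the opposite strand with 2900060N12Rik, which held only 26.4 normalized counts on average.

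Its relative Mboat1 (ENSMUSG00000038732, chr13:30136489-30246717, plus strand) was not separated by group. It held 1284, 2106 and 1855 normalized counts in the controls and 1752 and 1141 with DMHCA, and the groups overlapped. The log2 fold change of Mboat1 was -0.27 (SE 0.34, 95% interval -1.08 to 0.54), and without DMHCA library 2, with 1 DMHCA sample left, it was 0.046. Within each sample, the TPM of Mboat2 was 0.851, 0.469 and 0.397 times that of Mboat1 in the controls. It was 1.54 times that of Mboat1 in both DMHCA samples. Mboat1 was thus the more abundant of the pair per length in every control and Mboat2 in both DMHCA samples.

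Lpcat3, also of the membrane-bound O-acyltransferase family, puts polyunsaturated chains such as linoleate and arachidonate onto lysophosphatidylcholine. Lpcat3 (ENSMUSG00000004270, chr6:124663027-124704418, plus strand) held 3196, 4612 and 2332 normalized counts in the controls and 4607 and 6279 with DMHCA. The ranges met, with control 2 level with DMHCA libraries 1 and 3, and DMHCA library 2 above all others. The means were 3380 ± 1151 (SD, n = 3) and 5443 ± 1182 (SD, n = 2), a log2 fold change of 0.69 (SE 0.35, 95% interval -0.15 to 1.52, adjusted p = 0.646 by edgeR). Lpcat3 shares exon sequence with Emg1 on the opposite strand, and whether strand was used in counting is not given in the sources used here. Emg1 held 4257, 6569 and 4918 normalized counts in the controls and 4532 and 3838 with DMHCA. The order of samples thus differed between these neighbours, with DMHCA library 2 the highest for Lpcat3 and the lowest for Emg1.

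On the TPM scale, which divides by transcript length and by the total of each library, Lpcat3 did not overlap between the groups. It stood at 43.3, 46.0 and 32.4 TPM in the controls and at 61.6 and 92.1 TPM with DMHCA. By limma on log2(TPM + 1) the median log2 fold change of all genes lay higher by 0.14 than by edgeR on counts, a comparison in which both the scale and the model differ. The log2 fold change of Lpcat3 by limma on log2(TPM + 1) was 0.89, against 0.69 by edgeR.

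Among the AGPAT-type enzymes, Lpcat1 makes dipalmitoyl phosphatidylcholine, known from lung surfactant, and Lpcat2 makes platelet-activating factor in inflammatory cells. Lpcat2 (ENSMUSG00000033192, chr8:92855339-92919279, plus strand) held 3142, 4441 and 1520 normalized counts in the controls and 6171 and 7721 with DMHCA. Both DMHCA samples were above every control, the lower of them by 1.39 times, while the controls themselves spread over 2.92 times. The means were 3034 ± 1463 (SD, n = 3) and 6946 ± 1096 (SD, n = 2). The log2 fold change of Lpcat2 was 1.19 (SE 0.44, 95% interval 0.13 to 2.26), with an unadjusted p of 0.0329 and an adjusted p of 0.644 by edgeR. Without control 1 the unadjusted edgeR p was 0.0675, and without DMHCA library 2 it was 0.118, both at a log2 fold change above 1. The latter fit has 1 DMHCA sample, which is assumed to vary as the controls do. Without control 3, the lowest sample, the log2 fold change was 0.87. The antisense transcript Gm45472 overlaps Lpcat2 and held at most 114 normalized counts.

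For Lpcat1 (ENSMUSG00000021608, chr13:73467197-73516422, plus strand) the samples were close together. Controls stood at 3316, 3435 and 3039 normalized counts and DMHCA samples at 2857 and 3641, so that the DMHCA samples enclosed the controls. This gave a log2 fold change of -0.01 (SE 0.24, 95% interval -0.58 to 0.57). Set against Lpcat1 within each sample, the TPM of Lpcat2 was 1.21, 1.76 and 0.636 times as high in the controls and 2.75 and 2.71 times as high with DMHCA. For Lpcat3 this ratio was 1.60, 2.28 and 1.38 in the controls and 2.69 and 2.94 with DMHCA. Neither ratio overlapped between the groups. The TPM of Lpcat2 and of Lpcat3 was itself higher without overlap, as it was for 20.3% of all genes. How often the ratios of other pairs of genes separate the groups was not counted.

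Lpcat4, whose enzyme acylates lysophosphatidylethanolamine as well as lysophosphatidylcholine, was high in 1 DMHCA sample. Lpcat4 (ENSMUSG00000027134, chr2:112239468-112247111, plus strand) held 1687, 882 and 1231 normalized counts in the controls, 3826 in DMHCA libraries 1 and 3 and 1272 in DMHCA library 2. DMHCA library 2 lay within the range of the controls. The means were 1267 ± 404 (SD, n = 3) and 2549 ± 1806 (SD, n = 2), and the log2 fold change was 1.01 (SE 0.50, 95% interval -0.20 to 2.22, adjusted p = 0.644 by edgeR). Without DMHCA library 2 it was 1.63, again with 1 DMHCA sample. The mean length of the Lpcat4 transcripts, weighted by the isoforms that the authors' counting assigned, was 1307 to 1499 bases in control libraries and 1536 to 1656 bases in DMHCA libraries, so the ranges did not overlap. Mboat2 went the other way, with 3023 to 3222 bases in controls and 2855 to 3016 bases with DMHCA. These lengths enter TPM but not the counts.

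**Figure D2:**
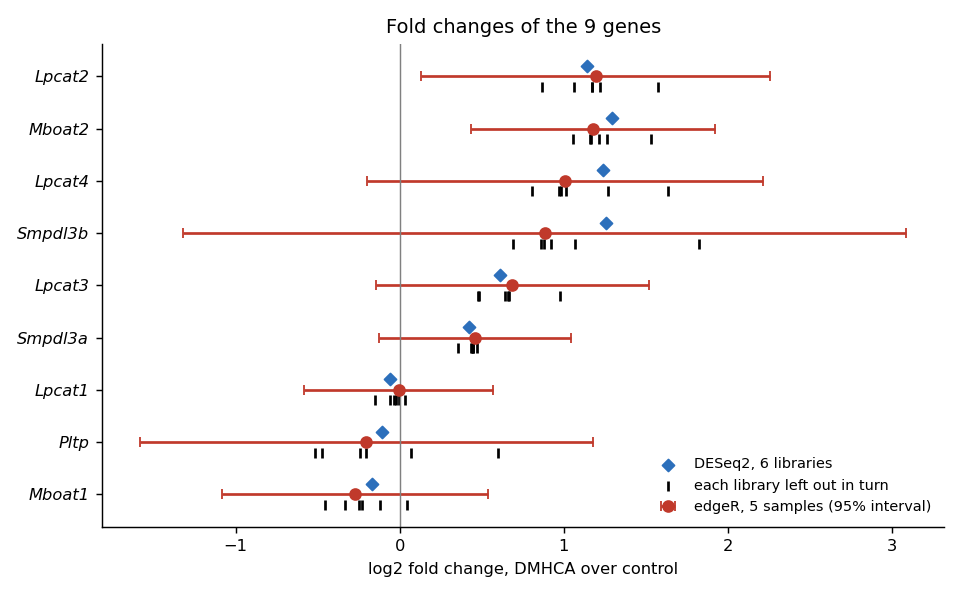
Log2 fold change of each gene, DMHCA over control (horizontal axis, 0 marked by the line). Red circles with bars are edgeR on 5 samples with the 95% interval, blue diamonds are DESeq2 on 6 libraries, and black ticks are edgeR with each library left out in turn. The intervals of Lpcat2 and Mboat2 lie above 0, and the ticks of Pltp stand on both sides of 0.

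Summed over the 6 acyltransferase genes, TPM was 162, 139 and 123 in controls 1, 2 and 3 and 265 in both DMHCA samples. Lpcat2, Lpcat3 and Mboat2 were higher in both DMHCA samples than in any control on this scale, as 20.3% of all genes were. The share of Lpcat1 in this sum was 14.4% to 19.0% in the controls and 8.65% and 11.8% with DMHCA, without overlap, while its own TPM overlapped (20.1 to 27.01 in controls, 22.9 and 31.3 with DMHCA). Mboat2 held 5.52% to 7.13% of the sum in controls and 10.9% and 7.54% with DMHCA. The share of Lpcat3 was 26.3% to 33.0% in controls and 23.3% and 34.7% with DMHCA, and these ranges overlapped. The DMHCA samples reached the same sum from different genes. Lpcat4 was 26.3% of it in libraries 1 and 3 and 8.99% in library 2, and Lpcat2 was 23.8% and 32.0%.

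**Figure D3:**
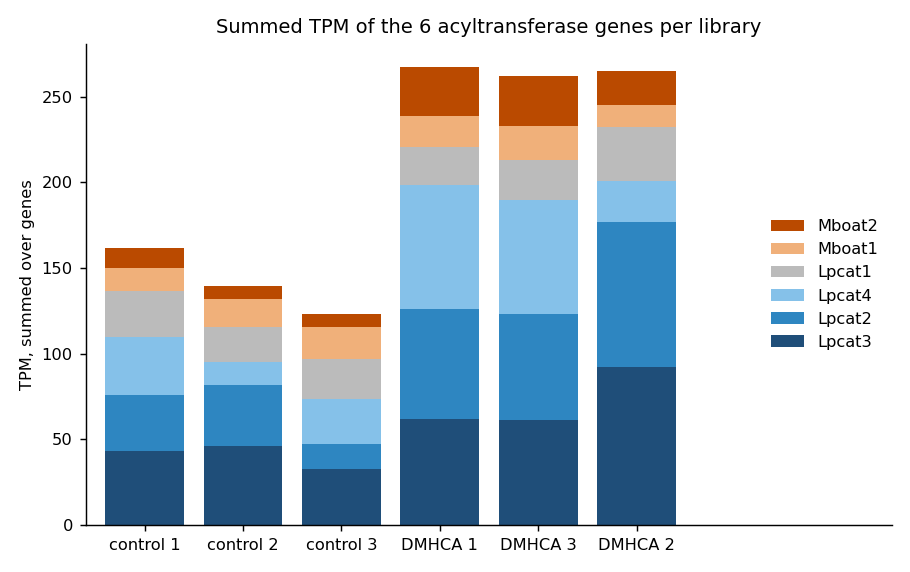
TPM of the 6 acyltransferase genes stacked for each library (vertical axis, TPM summed over genes), with DMHCA libraries 1 and 3 side by side. The control bars reach 123 to 162 TPM and the DMHCA bars about 265, with a wide Lpcat4 block in DMHCA libraries 1 and 3 and a narrow one in DMHCA library 2.

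Pltp encodes a plasma protein that moves phospholipids between lipoproteins and is known as an LXR target. Pltp (ENSMUSG00000017754, chr2:164839518-164857711, minus strand) held 1336, 1445 and 4502 normalized counts in controls 1, 2 and 3 and 2462 and 1756 with DMHCA. Control 3 was far above the rest, and both DMHCA samples lay between it and the other 2 controls. Its log2 fold change was -0.20 (SE 0.58, 95% interval -1.58 to 1.18, adjusted p = 0.929 by edgeR). Without control 3 it turned to 0.60, with an unadjusted edgeR p of 0.109, and without DMHCA library 2, with 1 DMHCA sample left, it was 0.069. Control 3 also held the most B cell, T cell and adipocyte marker RNA, and the part of these cells in its Pltp level was not tested. By the correlation of log2 normalized counts over the 5 samples, the genes most like Pltp were Zc3h12a (r = 0.999), the macrophage marker Cd68 (r = 0.993) and Gucy1b1 (r = 0.990), of 13856 genes compared. With 5 points this is a description, and 48 genes passed r = 0.95. Cd68 held 1203, 1366 and 2719 normalized counts in the controls and 1814 and 1559 with DMHCA. The 7 macrophage markers together overlapped between the groups. Summed, they stood at 33906, 42727 and 44525 normalized counts in controls 1, 2 and 3 and at 37471 and 27838 with DMHCA. Not all of them followed Pltp. Cd68, Adgre1 and Csf1r were highest in control 3, but C1qa, C1qb and C1qc in control 2 and Mrc1 in DMHCA libraries 1 and 3.

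Lpcat3 had other companions, with Gtdc1 (r = 0.9999), Zfand4 (r = 0.999) and Acsf3 (r = 0.999) the most alike over the same 5 samples and 374 genes past r = 0.95. Exons of Pltp overlap those of Ctsa on the opposite strand, which held 10811 to 10972 normalized counts in controls and 12515 and 9947 with DMHCA. The nearest tested gene starts on each side were those of Neurl2, at 71.4 to 86.7 normalized counts in controls and 72.3 and 65.8 with DMHCA, and Pcif1, at 2459 to 3256 and then 4212 and 3561. Of these neighbours, Pcif1 alone was higher in both DMHCA samples than in every control.

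Smpdl3a encodes a secreted phosphodiesterase that cleaves nucleotides, and Smpdl3b a membrane-anchored relative that restrains Toll-like receptor signals in macrophages. Smpdl3a (ENSMUSG00000019872, chr10:57794335-57811830, plus strand) held 6289, 6377 and 6200 normalized counts in the controls and 7815 and 9497 with DMHCA. In normalized counts the controls lay within 1.03 times of each other, the tightest of the 9 genes, and both DMHCA samples lay above them. The means were 6289 ± 88.2 (SD, n = 3) and 8656 ± 1189 (SD, n = 2), a log2 fold change of 0.46 (SE 0.24, 95% interval -0.12 to 1.05, adjusted p = 0.649 by edgeR). As single libraries were dropped this value ranged from 0.35 to 0.47, the 0.35 being without DMHCA library 2, with 1 DMHCA sample left. In TPM the Smpdl3a controls spread more, at 92.8, 69.6 and 84.4, and the DMHCA samples stood at 112 and 148.

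Smpdl3b (ENSMUSG00000028885, chr4:132732966-132757252, minus strand) split the DMHCA samples. Counts of 409, 725 and 616 were found in the controls after normalization, and DMHCA libraries 1 and 3 together held 2009 and DMHCA library 2 only 142. The higher DMHCA sample was thus above every control and the lower one below every control, 14.2 times apart. The libraries behind the first sample held 2020 and 1992 normalized counts. The log2 fold change was 0.88 (SE 0.92, 95% interval -1.32 to 3.09, adjusted p = 0.783 by edgeR), and without DMHCA library 2, with 1 DMHCA sample left, it was 1.83. Per length, Smpdl3b stood at 0.0630, 0.11 and 0.0963 of the TPM of Smpdl3a in the controls, and at 0.249 and 0.0145 with DMHCA.

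After these values were seen, the genes that start within 1 Mb of Smpdl3b were examined sample by sample. Of 51 such genes tested, 25 (49%) were highest in DMHCA libraries 1 and 3, where 19.5% of all genes were, and 1 (1.96%), Tmem200b, was highest in DMHCA library 2, where 22% of all genes were. Control 3 was the highest sample for 21 (41.2%), against 27.4% of all genes. The median log2 ratio of these neighbours to the control mean was 0.40 in DMHCA libraries 1 and 3 and -0.16 in library 2, where the medians of all genes were -0.09 and -0.06. Smpdl3b itself went further in both directions than any of its neighbours. Neighbours share a chromosome segment and are not independent, and no test was made of this pattern. The other 8 genes had shares on both sides of those of all genes. DMHCA libraries 1 and 3 were highest for 6 of 12 neighbours of Lpcat2 (50%), 5 of 11 of Lpcat4 (45.5%) and 16 of 43 of Pltp (37.2%). The shares were 11.1% or less around Lpcat1, Lpcat3, Mboat1 and Mboat2, with 0 of 10 around Smpdl3a. DMHCA library 2 was highest for 9.09% to 44.4% of the neighbours of these 8 genes, and so for a larger share than around Smpdl3b.

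**Figure D4:**
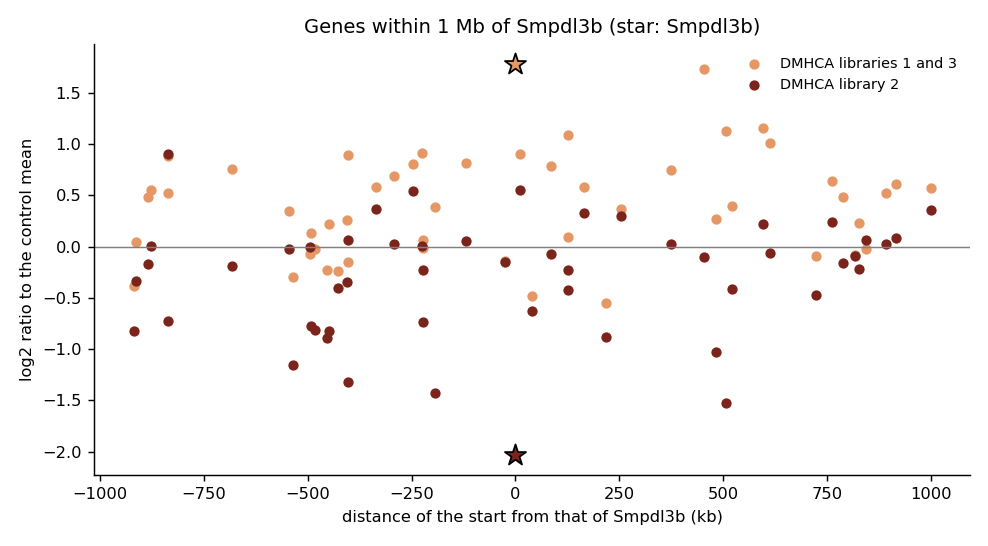
Log2 ratio of each DMHCA sample to the control mean (vertical axis) for genes within 1 Mb of Smpdl3b, by the distance of their start from that of Smpdl3b in kb (horizontal axis). Orange points are DMHCA libraries 1 and 3, dark points DMHCA library 2, and stars mark Smpdl3b. The orange points have a median of 0.40 and the dark points of -0.16.

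Compared per length, Smpdl3a was the most abundant of the 9 genes in both groups, at 82.3 ± 11.7 TPM (SD, n = 3) in controls and 130 ± 26.1 TPM (SD, n = 2) with DMHCA. In controls the means then fell from Lpcat3 (40.6) through Pltp (36.3), Lpcat2 (27.7), Lpcat4 (24.5), Lpcat1 (23.5), Mboat1 (16.3) and Mboat2 (8.89) to Smpdl3b (7.22 TPM). Only the steps from Smpdl3a to Lpcat3, from Lpcat1 to Mboat1 and from Mboat1 to Mboat2 were without overlap of the samples. With DMHCA the order was Smpdl3a, Lpcat3 (76.8), Lpcat2 (73.8), Lpcat4 (46.7), Pltp (34.6), Lpcat1 (27.1), Mboat2 (24.4), Mboat1 (15.9) and Smpdl3b (15.0 TPM). Here only the steps below Smpdl3a and between Mboat2 and Mboat1 were without overlap.

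The pathway around these genes was read from 74 further genes of acylation, phospholipase action, sphingomyelin turnover, transfer and synthesis, of which 69 were tested. Their median log2 fold change was -0.05, and 33 were above 0. At an unadjusted edgeR p under 0.05, 7 (10.1%) were higher and 4 (5.8%) lower with DMHCA, where 3.53% and 4.08% of all genes were, and 0 had an adjusted p under 0.05. Without control 3 the 7 became 2, where 2.17% of all genes were higher, and without DMHCA library 2 they became 4, where 2.94% were. The median of this list was near that of all genes.

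Of the 18 tested genes of phospholipid transfer and flipping, 3 (16.7%) were higher and 0 lower at this p, against the same 3.53% and 4.08% of all genes, which also stand beside the counts of the lists that follow. Abca1, which exports cholesterol and phospholipid to apolipoproteins, held 5142, 3368 and 6185 normalized counts in controls and 15008 and 10199 with DMHCA. Both DMHCA samples were above every control, and the log2 fold change was 1.36 (SE 0.35). Stard10, a carrier of phosphatidylcholine and phosphatidylethanolamine, followed at 0.74 (SE 0.29). Lbp, which hands lipopolysaccharide to CD14, stood at -0.97 (SE 0.42), with both DMHCA samples below every control and a p over 0.05.

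Sphingomyelin turnover had 1 higher and 1 lower gene of 10 (10% each). Col4a3bp encodes the protein that carries ceramide to the Golgi for sphingomyelin synthesis. It held 2633, 2518 and 3109 normalized counts in controls and 4933 and 6848 with DMHCA, a log2 fold change of 1.10 (SE 0.26). Both DMHCA samples were above every control. Asah1, the acid ceramidase gene, was at -0.83 (SE 0.33).

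Among 18 tested phospholipases and lysophospholipases, 3 (16.7%) were lower and 0 higher, where 4.08% and 3.53% of all genes were, with a median log2 fold change of -0.22. Enpp2 encodes autotaxin, which makes lysophosphatidic acid from lysophosphatidylcholine. It held 806, 1019 and 4028 normalized counts in controls and 118 and 69.9 with DMHCA, a log2 fold change of -4.37 (SE 0.89). Every DMHCA value was below every control value, and control 3 was the highest. The study itself names Enpp2, Plb1 and Abca1 from these samples, so their directions are no independent evidence. Plb1, a phospholipase B gene, was at -2.39 (SE 0.78), and Pla2g2d, a secreted phospholipase A2 gene, at -3.95 (SE 1.63) with overlapping groups. Control 3 held 1044 normalized counts of Pla2g2d, and the other controls 162 and 28.5. The 5 adipocyte markers were each lower in both DMHCA samples than in every control, at 1157 to 17269 summed normalized counts in controls against 158 and 403. Their part in these lower phospholipase counts was not tested.

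The list of other acyltransferases held 9 tested genes, 1 of them (Tmem86a) for a hydrolase of lysoplasmalogens and not an acyltransferase. Of these 9, 1 (11.1%) was higher and 0 lower, namely Mboat7, which puts arachidonate onto lysophosphatidylinositol. Mboat7 held 3571, 2160 and 2261 normalized counts in controls and 4796 and 5482 with DMHCA, without overlap, a log2 fold change of 0.95 (SE 0.30). Phosphatidylcholine and phosphatidylethanolamine synthesis had 2 higher genes (14.3%) and 0 lower of 14, with a median log2 fold change of 0.23. Ptdss2, a phosphatidylserine synthase gene, was at 0.68 (SE 0.27). DESeq2 on the 6 libraries gave an adjusted p under 0.05 to Abca1 and Col4a3bp as higher and to Enpp2, Plb1, Pla2g2d and Agpat4 as lower, where it called 1.43% and 2.95% of all genes. That fit takes the near-identical DMHCA libraries 1 and 3 as different samples. With the 5 samples, DESeq2 called Enpp2 alone of the list, where it called 0.247% of all genes higher and 0.957% lower.

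**Figure D5:**
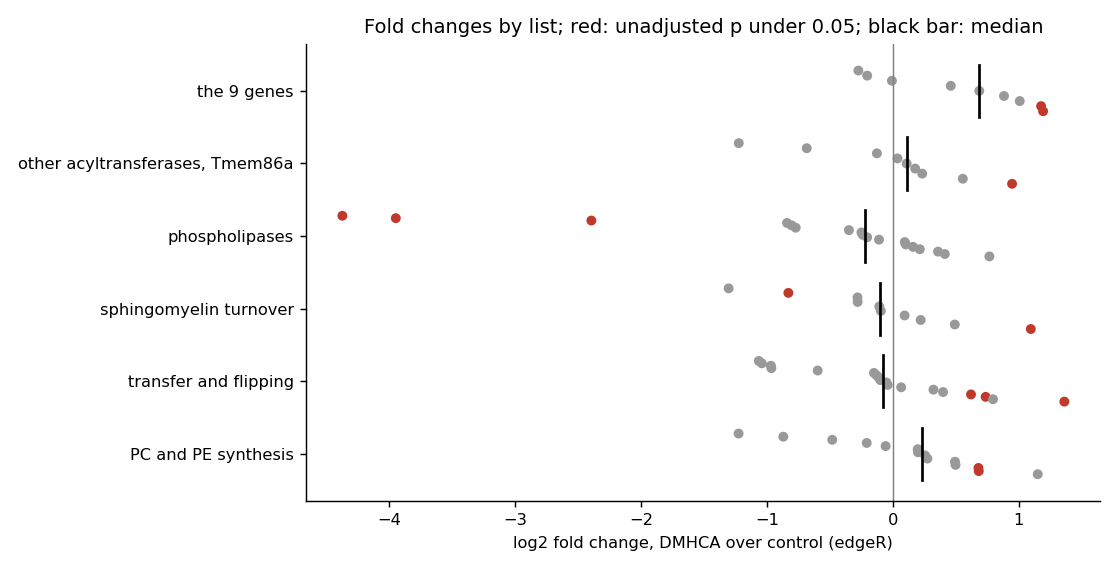
Log2 fold change, DMHCA over control, by edgeR (horizontal axis) for each tested gene, in rows for the 9 genes and the 5 lists around them. Red points have an unadjusted p under 0.05 and black bars are medians, which stand at 0.69 for the 9 genes and between -0.22 and 0.23 for the lists.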

How the data were processed

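The study describes tumor RNA of 3 mice per group, and 3 libraries per group were used here, of which DMHCA libraries 1 and 3 were nearly identical. Per the labels and the study's methods, the authors used FastQC 0.11.9, cutadapt 2.9 and RSEM 1.3.1 with Bowtie2 2.4.1 on mm10 (GRCm38). For each library the authors deposited expected counts, TPM and FPKM per gene. Expected counts are the deposited, unnormalized estimates of reads, TPM was scaled by the authors per length and library, and the deposited FPKM was not used here. The strand setting is not given in the sources used here.

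Expected counts were rounded to whole numbers. DMHCA libraries 1 and 3 were summed, since their coefficient of variation fell below 0.1 and was less than that of every other pair by over 5 times. edgeR 4.0.16 (R 4.3.3) was run with TMM, filterByExpr (minimum count 10, total 15) and the quasi-likelihood test over 19427 genes, with Benjamini-Hochberg adjustment. Counts were normalized by TMM to the mean effective library size. Alternatives were DESeq2 1.42.0, limma 3.58.1 on log2(TPM + pseudocount of 1 or 0.1), other filters and scalings, the replicate block, and each library left out. Gene positions came from GENCODE (GRCm38, 55144 of 55385 genes found). Levels between genes were compared in TPM.

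Named were all 9 genes, the 5 pathway genes with the smallest p in each direction, the 3 genes most like Lpcat3 and Pltp by Pearson r of log2(normalized counts + 1) among genes with a mean of at least 100, and the neighbours nearest to Pltp. Emg1, Ctsa, Tmem200b, Agpat4 and the genes around Smpdl3b were named after their values were seen. The genes and lists were chosen with earlier results of these data known.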

Additional observations from a re-analysis of the deposited data

How the results depend on the processing

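Over 16 alternatives, the log2 fold changes of Lpcat2 (0.87 to 1.57), Lpcat3 (0.48 to 0.98), Lpcat4 (0.80 to 1.63), Mboat2 (1.06 to 1.53), Smpdl3a (0.35 to 0.65) and Smpdl3b (0.13 to 1.83) stayed above 0. Mboat2 kept an unadjusted p under 0.05 in all 16 and passed the adjusted threshold in 1, DESeq2 on the 6 libraries (1.297). Lpcat1 turned to 0.017 without a filter and with DESeq2 on the 5 samples, and to 0.19 and 0.20 with limma at pseudocounts of 1 and 0.1. As libraries were left out it ranged from -0.15 to 0.031 (without control 2). Mboat1 then ranged from -0.46 to 0.046 (without DMHCA library 2). Pltp turned to 0.17 and 0.18 with limma and ranged from -0.51 to 0.60 (without control 3), with 0.069 without DMHCA library 2. The limma fits on TPM raised the median of all genes by 0.14 and 0.19, while Pltp moved further than that. The cause of these changes was not tested.

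Genes with an adjusted p under 0.05, 0 by edgeR, were 4 higher and 12 lower without a filter, 50 and 194 with DESeq2 on the 5 samples, and 288 and 594 with DESeq2 on the 6 libraries, which count DMHCA 1 and 3 separately. Of the 9 genes, the last fit called 1, and of the pathway genes 2 higher and 4 lower. No filter and DESeq2 on the 5 samples each called 1 pathway gene lower. At an unadjusted p under 0.05, 4 of the 9 genes were higher with limma at either pseudocount (5.57% and 5.44% of all genes higher, 1.72% and 2.12% lower), and 1 to 3 as libraries were left out (2.17% to 3.34% of all genes higher). Pathway genes higher were 4 without a filter (4.58% of all genes) and 2 to 6 as libraries were left out. Pathway genes lower were 8 with DESeq2 and 7 with edgeR on the 6 libraries, where 9.73% and 8.03% of all genes were lower, against 4.08% on the 5 samples.

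Whether the same numbers in the labels pair the samples could not be settled, since DMHCA libraries 1 and 3 are nearly identical. Deviations of same-numbered libraries correlated at -0.06, 0.37 and 0.41. Control 1 did not correlate best with its own number, while control 2 did. Control 3 correlated at 0.41 with both DMHCA library 1 and DMHCA library 3. With the replicate number as a block, edgeR on the 6 libraries gave 3207 genes with an unadjusted p under 0.05, against 2912 without the block, and 0 with an adjusted one. With the block, 4 of the 9 genes and 12 pathway genes were higher (9.1% of all genes) and 8 pathway genes lower (8.08%) at an unadjusted p under 0.05, and Pltp stood at 0.086. With 2 DMHCA samples, the 95% intervals of 7 of the 9 genes include 0.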
